A study of Mus musculus with 4 samples.

Results

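The lysosomal genes described here are 54 genes that encode acid hydrolases, proteins of the lysosomal membrane or subunits of the proton pump, taken from a given list and found by symbol among the 21938 protein-coding genes of GENCODE vM21, whether or not methylated Pontin was detected near them. They comprise 31 hydrolases or their activators, 9 membrane and cholesterol-handling proteins and 14 Atp6 proteins of the vacuolar proton pump. A gene was counted as having a promoter peak when the centre of a methylated Pontin peak lay within 2.5 kb of any of its annotated transcription start sites (TSSs).

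Methylated Pontin was mapped by chromatin immunoprecipitation and sequencing (ChIP-seq) in mouse embryonic fibroblasts (MEFs), connective tissue cells cultured from mouse embryos. The series has 4 libraries, a ChIP with an antibody to arginine-methylated Pontin (mePontin) and an input, each in normal medium and under glucose starvation, with 1 library per condition and no replicate. The values below come from the peaks of the glucose-starved ChIP, which the authors called against input, and the ChIP in normal medium was not analysed here, so the values say nothing about a change upon starvation. A peak list holds no expression values, so the fibroblast label could not be checked against marker genes.

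Lysosomes break down proteins, lipids, glycans and glycogen delivered by autophagy and endocytosis. Their soluble hydrolases work at acidic pH, which the vacuolar proton pump maintains by using ATP hydrolysis in its peripheral V1 sector to drive protons through its membrane-embedded V0 sector, while membrane proteins protect the limiting membrane and export ions and the products of digestion. Many of these genes carry the CLEAR element, the recognition sequence of TFEB and its relatives, in their promoters, and FOXO factors are further activators of autophagy genes. Pontin (RUVBL1) is an ATPase of chromatin-remodeling complexes that acts as a coactivator.

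Peaks lay at 19 of the 54 lysosomal genes, or 35.2% (95% Wilson interval 23.8 to 48.5), beside 17.0% of the 21884 other protein-coding genes. The interval, like all others here, covers counting error alone, and genes are no replicates of the condition. Since GC-rich promoters held peaks more often, each lysosomal gene was also set beside the other protein-coding genes whose promoter GC content was within 1 percentage point of its own. A share of 20.0% of such genes had a peak, which corresponds to 10.8 of 54 genes. The list has no independent standing, since it was drawn up with results of these peaks known.

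Membrane proteins had a peak at 4 of 9 genes (44.4%, 18.9 to 73.3), proton pump subunits at 6 of 14 (42.9%, 21.4 to 67.4) and hydrolases at 9 of 31 (29.0%, 16.1 to 46.6). The shares in genes of like promoter GC content were 21.5%, 19.9% and 19.6%, respectively. The 3 intervals overlapped widely, so the classes could not be ranked, and those of the membrane proteins and the hydrolases held the share of their like-GC genes.

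**Figure D1:**
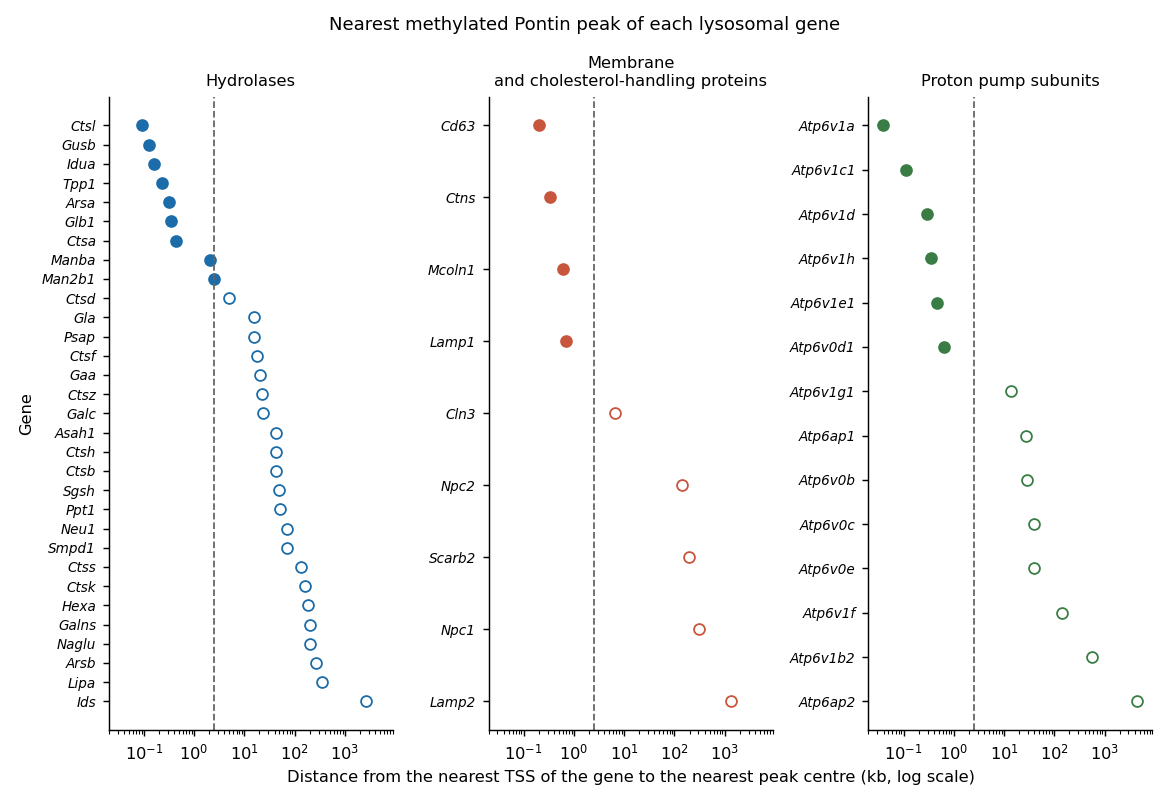
Distance in kb (log scale) from the nearest TSS of each of the 54 lysosomal genes to the nearest methylated Pontin peak centre, by class. Filled points are the 19 genes with a peak within 2.5 kb (dashed line) and open points are the other 35. A gap separates Man2b1 at 2435 bp from Ctsd at 4990 bp, so that few genes lay near the limit.

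The signal of a peak is its normalized tag count, the number of sequenced fragments (tags) in its 481-bp window per 10000000 tags of the library. Over the 19 peaks of lysosomal genes the median was 17.3 (quartiles 13.6 and 21.5), which corresponds to a median of 35.9 tags in this library. The 3213 peaks within 2.5 kb of a protein-coding TSS, called promoter peaks below, had a median of 14.9 (quartiles 12.5 and 17.8), and all 4311 peaks had a median of 14.2. Of the 19, 13 were above the median of all peaks (68.4%, against 54.7% of promoter peaks) and 11 were above that of the promoter peaks. Peak signal differed between chromosomes, and 12 of the 19 were above the median of the peaks on their own chromosome.

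By class, the median normalized tag count was 21.5 for the 4 membrane proteins (12.0 to 29.6), 16.6 for the 9 hydrolases (9.39 to 22.9) and 16.1 for the 6 pump subunits (10.8 to 22.9). The ranges of the classes overlapped, and with 1 library no difference in signal between single genes could be tested against replicate error.

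**Figure D2:**
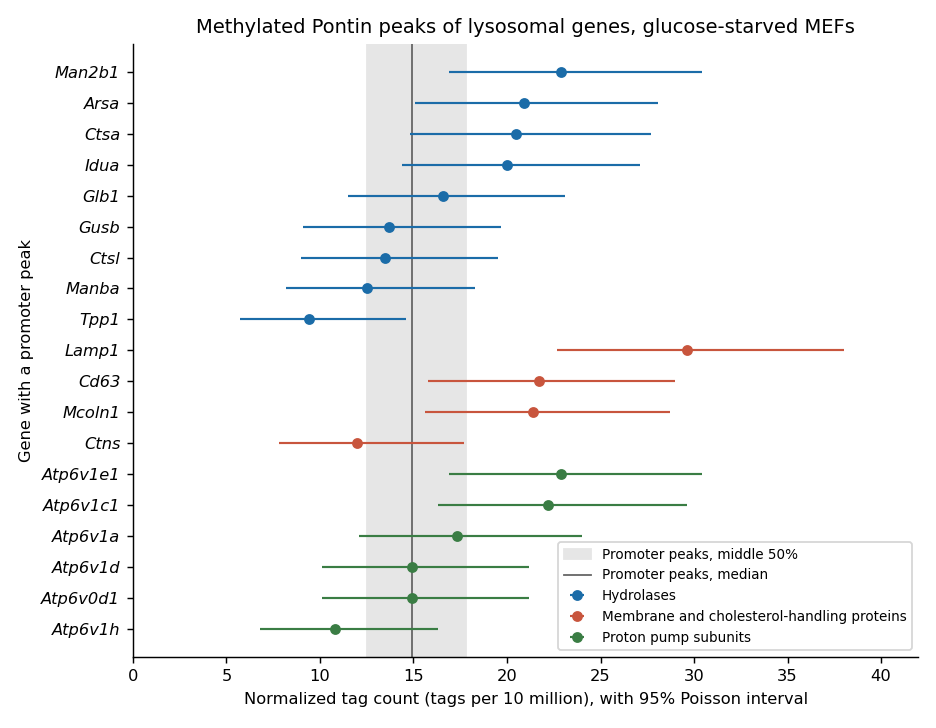
Normalized tag count (tags per 10000000) of the promoter peak of each of the 19 lysosomal genes that had one, with 95% Poisson intervals of the tag counts, by class. The grey band holds the middle 50% of the 3213 promoter peaks and the line is their median of 14.9. Lamp1 (29.6) is the highest and Tpp1 (9.39) the lowest, and the interval of Lamp1 lies above those of 8 other genes.

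Among the membrane proteins, Lamp1, which encodes an abundant glycoprotein that lines the inner face of the lysosomal membrane, had the highest signal of the 54 genes. Its peak at chr8:13158213-13158693 (mm10) had a normalized tag count of 29.6, or 61.5 tags in the library (95% Poisson interval 47.1 to 78.9), and 99.4% of all peaks were lower. The peak was centred 708 bp upstream of the TSS in an intergenic region, at 15.33-fold over input. Its interval lay above those of 8 of the 18 other genes and overlapped the other intervals. The central 201 bases of the peak, on the strand of the gene, are shown because this was the strongest site, and capitals mark the 11 bases at the centre (mm10, chr8:13158353-13158553, plus strand).

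Lamp1 peak centre: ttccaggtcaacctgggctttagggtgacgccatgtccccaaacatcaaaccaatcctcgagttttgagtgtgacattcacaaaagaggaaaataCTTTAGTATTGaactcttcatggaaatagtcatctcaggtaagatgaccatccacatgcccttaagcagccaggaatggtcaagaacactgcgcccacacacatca

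Cd63, which encodes a tetraspanin of late endosomes and lysosomes, had a peak with a normalized tag count of 21.7 at chr10:128908899-128909379, where 92.5% of all peaks were lower. It lay 206 bp upstream of an internal TSS and 8150 bp downstream of the most upstream coding TSS, in an intron. Mcoln1 encodes TRPML1, the calcium channel of the lysosomal membrane. Its peak at chr8:3499599-3500079 had a normalized tag count of 21.4 and lay 618 bp upstream of the TSS. The input level there, obtained by dividing the signal of the peak by its fold over input, was 4.25, the highest of the 19 genes, and the fold over input was 5.04.

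Ctns, which encodes cystinosin, the exporter of cystine, had a weaker peak, with a normalized tag count of 12.0, at chr11:73198419-73198899. Its centre lay 336 bp downstream of a TSS, in an intron, and 801 bp from a TSS of Shpk, the neighbouring gene for sedoheptulokinase. The fold over input was 31.15 although only 24.7% of all peaks had a lower tag count, as the input level was 0.385, the lowest of the 19 genes. The order of the genes by fold over input thus differed from that by tag count, and a fold of this size rests on a low input level.

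The other 5 genes of the class had no promoter peak. For Cln3, which encodes battenin, the nearest peak was 6.64 kb from an internal TSS and lay in a coding exon of Eif3c, a translation initiation factor gene, 117 bp from a TSS of that gene. For the sterol-handling pair Npc1 and Npc2, the receptor gene Scarb2 and the second lysosome-associated membrane protein gene Lamp2, the nearest peak was 145 kb or more away. Lamp1 and Lamp2, whose products are related in structure, had the highest signal of the list and no peak within 1330 kb, respectively. Lamp2 lies on the X chromosome, which had 43 peaks and a promoter peak at 3.59% of its protein-coding genes. Lamp1 lies on chromosome 8, whose peaks had the highest median signal of any chromosome.

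Of the proton pump genes, 5 of the 8 V1 subunits (62.5%, 30.6 to 86.3), 1 of the 4 V0 subunits (25.0%, 4.56 to 69.9) and 0 of the 2 accessory proteins had a promoter peak, where the share of all other protein-coding genes was 17.0%. The intervals of V1 and V0 overlapped widely, so no difference between the sectors was shown. Atp6v1e1, a subunit of the peripheral stalk, had a normalized tag count of 22.9 at chr6:120823014-120823494, centred 461 bp upstream of the TSS. Atp6v1c1, the C subunit that links the V1 and V0 sectors and is released when the pump comes apart, had 22.2 at chr15:38661858-38662338, 110 bp downstream of a TSS in an untranslated exon. Of all peaks, 94.8% and 93.6% were lower, respectively, and their library counts of 47.6 (35.0 to 63.1) and 46.1 (33.8 to 61.5) had overlapping intervals.

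Atp6v1a, the catalytic subunit, had a normalized tag count of 17.3 at chr16:44138917-44139397, 39 bp downstream of a TSS and the nearest of the 19. Atp6v1d, a subunit of the rotor, had 14.9 at chr12:78861695-78862175, 297 bp upstream of its TSS. That peak was in an untranslated exon of the divergent gene Eif2s1, a translation initiation factor gene, 116 bp from a TSS of Eif2s1. The only V0 gene with a peak, Atp6v0d1, encodes the d subunit that couples the rotor to the membrane ring, and it also had 14.9, at chr8:105566444-105566924, 637 bp upstream of its TSS and 333 bp from the TSS of the antisense transcript Gm38250.

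Atp6v1h, a regulatory subunit, had the lowest signal of the class, with a normalized tag count of 10.8 at chr1:5082494-5082974, and 12.4% of all peaks were lower. It lay 346 bp upstream of an internal TSS in an intron, 12716 bp from the most upstream coding TSS. No promoter peak was found for the V1 genes Atp6v1b2, Atp6v1f and Atp6v1g1, the V0 genes Atp6v0b, Atp6v0c and Atp6v0e or the accessory genes Atp6ap1 and Atp6ap2. Their nearest peaks were between 13.5 kb (Atp6v1g1) and 4340 kb (Atp6ap2) away, and no gene of the proton pump lay between 2.5 and 10 kb.

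Among the 9 cathepsins, the proteases of the lysosome, 2 had a promoter peak (22.2%, 6.32 to 54.7), near the 17.0% of all other protein-coding genes. Ctsa encodes cathepsin A, a carboxypeptidase that also shields beta-galactosidase and neuraminidase from degradation, and its peak, with a normalized tag count of 20.5, was at chr2:164833121-164833601, 435 bp downstream of a TSS. The peak centre was nearer to Neurl2, a gene on the opposite strand, at 95 bp from its TSS. Ctsl, which encodes the cysteine protease cathepsin L, had a normalized tag count of 13.5 at chr13:64370420-64370900, 93 bp downstream of a TSS in an intron, at the lowest fold over input of the 19 genes (4.98).

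The nearest peak of Ctsd, which encodes the aspartic protease cathepsin D, was 4.99 kb upstream in an intergenic region, with a normalized tag count of 14.7. The other 6 cathepsin genes, Ctsb, Ctsf, Ctsh, Ctsk, Ctss and Ctsz, had their nearest peaks at 18.0 kb (Ctsf) to 159 kb (Ctsk). Tpp1, which encodes tripeptidyl peptidase 1, a protease outside the cathepsins, had the weakest peak of the list, with a normalized tag count of 9.39 at chr7:105752223-105752703, 228 bp upstream of its TSS. In the library this was 19.5 tags (11.8 to 30.3), and 2.0% of all peaks were lower. Its deposited peak score of 19.0 was close to 18.0, the lowest score of the promoter peaks at other protein-coding genes.

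Of the 22 hydrolase genes outside the cathepsins, 7 had a promoter peak (31.8%, 16.4 to 52.7), beside 17.0% of the other protein-coding genes. Besides Tpp1, these were 6 genes for enzymes that degrade glycans and sulfated substrates. Man2b1, the alpha-mannosidase, had the highest normalized tag count of the hydrolases, 22.9, at chr8:85080595-85081075, but this was the peak farthest from its gene, 2435 bp upstream, and it lay in Wdr83, 89 bp from a TSS of that gene and 95 bp from one of Wdr83os. Arsa, which encodes arylsulfatase A, had 20.9 at chr15:89475556-89476036, in an untranslated exon, 317 bp from the TSS of a transcript with a retained intron and 1629 bp from the most upstream coding TSS. Glb1, which encodes beta-galactosidase, had 16.6 at chr9:114400490-114400970, 346 bp upstream of its TSS and 375 bp from that of Tmppe. Of these 3 peaks, only that of Glb1 lay within 500 bp of the most upstream coding TSS of its gene.

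Idua, which encodes alpha-L-iduronidase, had a normalized tag count of 20.0 at chr5:108669381-108669861, 162 bp downstream of the TSS of a non-coding transcript of the gene, 9290 bp downstream of the most upstream coding TSS and 51 bp from a TSS of Dgkq, a diacylglycerol kinase gene. Its fold over input of 51.71 was the highest of the 19 genes, at an input level of 0.387, and 99.1% of all peaks had a lower fold. Gusb, which encodes beta-glucuronidase, had 13.7 at chr5:130002934-130003414, 125 bp upstream of its TSS, with no other coding gene within 2.5 kb. Manba, the beta-mannosidase gene, had 12.5 at chr3:135518994-135519474, in an intron 2084 bp downstream of the TSS of a non-coding transcript and 33623 bp from the most upstream coding TSS.

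No promoter peak was found for the remaining hydrolase genes. They comprise Gaa, for acid alpha-glucosidase, which degrades glycogen, Gla, Hexa, Ids, Naglu, Neu1, Sgsh, Galns and Arsb, for enzymes that act on glycans or glycolipids, and Smpd1, Galc, Asah1, Lipa, Ppt1 and Psap, for enzymes or activators of lipid breakdown and removal of lipid from proteins. Their nearest peaks were between 15.2 kb (Gla) and 2640 kb (Ids) away. Neu1 encodes neuraminidase 1, which forms a complex with the products of Ctsa and Glb1, and it had no peak within 69.8 kb, whereas both partners had one. The peak counted for Ctsa was nearer to a TSS of Neurl2, and the peaks of both partners were below 8-fold over input.

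Over all 35 genes without a promoter peak, the nearest peak was 4.99 kb to 4340 kb away with a median of 50.5 kb, beside 134 kb for the other protein-coding genes without one. For 2 of the 35 it lay within 10 kb, for 18 between 10 and 100 kb and for 15 farther. The X chromosome held 5 of them, Gla, Ids, Lamp2, Atp6ap1 and Atp6ap2, and it had 43 peaks and a promoter peak at 3.59% of its protein-coding genes. On the autosomes, 19 of 49 lysosomal genes had a peak (38.8%), beside 17.8% of the other protein-coding genes and 20.7% of those of like promoter GC content. Chromosome 8 held 7 of the 54 genes, of which 4 had a peak, beside 20.0% of all its protein-coding genes. Its peaks had the highest median signal of any chromosome, 18.5. Set against that chromosome alone, 96.0% of its peaks were lower than that of Lamp1, 78.6% than that of Man2b1, 69.8% than that of Mcoln1 and 27.4% than that of Atp6v0d1.

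Peaks of the lysosomal genes were in part shared with neighbours. In 14 of the 19, the TSS nearest to the peak centre belonged to the gene itself (73.7%, against 78.8% of the 3728 other genes with a peak). In the other 5, Ctsa, Idua, Man2b1, Atp6v0d1 and Atp6v1d, it belonged to Neurl2, Dgkq, Wdr83, Gm38250 and Eif2s1. A TSS of another protein-coding gene lay within 2.5 kb of the centre for 8 of the 19 (42.1%, against 30.7%), and to which of the genes such a peak relates cannot be told apart from its position.

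The peak centres were a median of 336 bp from the nearest TSS of the gene, beside 268 bp over the 3728 other protein-coding genes with a peak, where a peak counted once for each gene it served, and 14 of 19 were within 500 bp (73.7%, against 78.7% of those genes). They were upstream of that TSS for 11 genes (57.9%, against 55.2% of the 3728 other genes) and downstream for 8. The centre lay in an intron of the gene for 7, in an untranslated exon for 3 and outside the gene for 9. For 6 genes, Idua, Man2b1, Manba, Arsa, Cd63 and Atp6v1h, the centre was more than 1 kb from the most upstream coding TSS, from which promoter sequences were taken, and lay at another TSS or beyond.

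The fold over input gave another order. Its median over the 19 peaks was 7.57 (4.98 to 51.71), beside 9.10 for promoter peaks, and the median input level was 1.93, beside 1.55. With peaks of at least 8-fold over input alone, 9 of the 54 genes (16.7%) had a promoter peak, beside 9.91% of the other genes and 11.5% of those of like GC content. The genes below this limit were Arsa, Ctsa, Ctsl, Glb1, Manba, Tpp1, Mcoln1, Atp6v0d1, Atp6v1a and Atp6v1h. This left 3 of 31 hydrolases, 3 of 9 membrane proteins and 3 of 14 pump subunits. No interval was computed at this limit, so whether the 16.7% exceeds the other shares beyond counting error was not assessed. The fold over the surrounding 10 kb had a median of 5.33 (4.13 to 8.53), beside 5.01 for promoter peaks, and was highest at Glb1.

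Promoter GC content, taken over the 300 bases from 250 before to 50 after the most upstream coding TSS, had a median of 57.2% in the 54 genes and 55.3% in the others. Among the other protein-coding genes, those with a peak had a median of 59.7% and those without one 54.0%. In the lysosomal genes the medians were 57.0% with and 57.3% without a peak. Between 45 and 50% GC, 5 of 7 lysosomal genes (Ctsl, Gusb, Tpp1, Arsa and Cd63) had a peak, beside 11.7% of the others. The peaks of Arsa and Cd63 lay 1629 and 8150 bp from the TSS at which this GC content was taken. Between 55 and 60% it was 3 of 15, beside 20.9%. The DNA under the 19 peaks had a median GC content of 51.8%, beside 56.3% for promoter peaks.

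**Figure D3:**
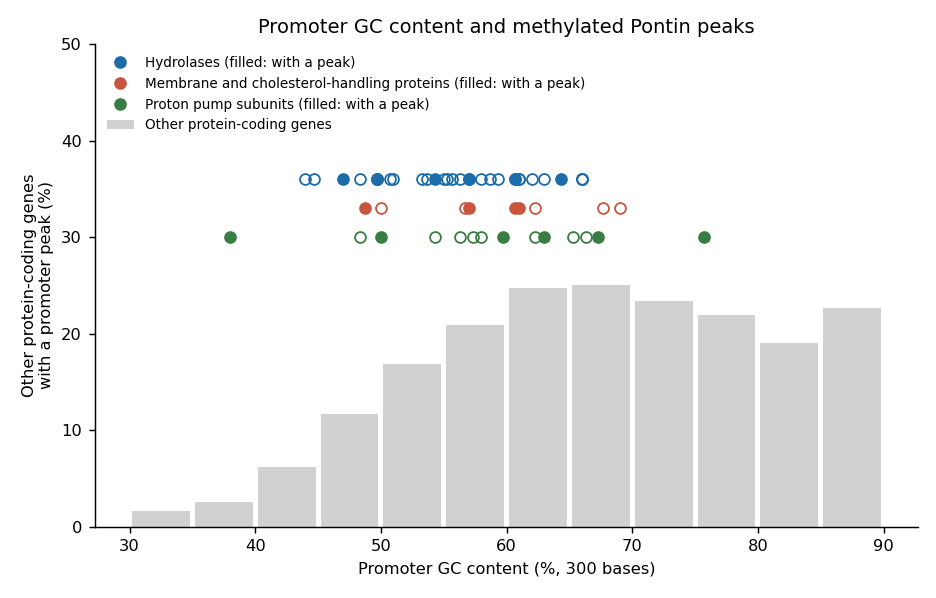
Promoter GC content (%) of the 54 lysosomal genes (points, filled with a peak and open without, one row per class, whose height has no meaning) above the percentage of other protein-coding genes with a promoter peak in bins of 5 percentage points (bars). The bars rise from 1.6% at 30 to 35% GC to 25.0% at 65 to 70%, while the filled points reach from 38.0% (Atp6v1h) to 75.7% (Atp6v1a). GC content was taken at the most upstream coding TSS, and the peak of Atp6v1h lay 12716 bp from it.

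The hexamer CACGTG, the core of the CLEAR element, was searched in the 300-base promoters. As a palindrome it reads alike on both strands. It occurred in 15 of the 54 promoters (27.8%, against 7.67% of those of the other protein-coding genes), at 9 hydrolases, 2 membrane proteins and 4 pump subunits. The longer GTCACGTG, which contains it and was searched on both strands, occurred in 12 (22.2%, against 2.51%). CACGTG was found in 7 of the 19 promoters with a peak (Glb1, Arsa, Lamp1, Mcoln1, Atp6v0d1, Atp6v1a and Atp6v1c1) and in 8 of the 35 without one (Ctsb, Ctsd, Ctsf, Gaa, Gla, Naglu, Sgsh and Atp6v0b), and GTCACGTG in 6 of 19 and 6 of 35.

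The last 120 bases before the most upstream coding TSS are shown for 4 genes with a peak and 3 without one, with CACGTG in capitals, so that the element can be seen beside genes of both kinds. They were read on the strand of the gene from mm10, at chr8:13159041-13159160 (plus) for Lamp1, chr8:3500337-3500456 (plus) for Mcoln1, chr8:105566048-105566167 (minus) for Atp6v0d1, chr9:114400956-114401075 (plus) for Glb1, chr7:142388039-142388158 (minus) for Ctsd, chr14:63122342-63122461 (plus) for Ctsb and chr4:117887334-117887453 (minus) for Atp6v0b.

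Lamp1 promoter: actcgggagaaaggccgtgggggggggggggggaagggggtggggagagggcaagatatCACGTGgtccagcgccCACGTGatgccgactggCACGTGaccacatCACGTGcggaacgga
Mcoln1 promoter: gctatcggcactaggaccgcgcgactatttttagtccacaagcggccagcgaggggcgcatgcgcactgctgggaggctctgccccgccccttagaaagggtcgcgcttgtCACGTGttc
Atp6v0d1 promoter: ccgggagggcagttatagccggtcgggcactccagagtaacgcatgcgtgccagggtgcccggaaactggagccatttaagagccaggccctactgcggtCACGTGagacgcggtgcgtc
Glb1 promoter: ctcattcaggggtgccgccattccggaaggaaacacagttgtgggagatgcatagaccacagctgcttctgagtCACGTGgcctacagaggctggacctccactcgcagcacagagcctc
Ctsd promoter: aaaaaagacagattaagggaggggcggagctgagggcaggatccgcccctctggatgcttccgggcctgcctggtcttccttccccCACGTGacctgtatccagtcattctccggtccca
Ctsb promoter: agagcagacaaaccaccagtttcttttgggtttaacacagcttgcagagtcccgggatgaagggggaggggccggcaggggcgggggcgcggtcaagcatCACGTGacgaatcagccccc
Atp6v0b promoter: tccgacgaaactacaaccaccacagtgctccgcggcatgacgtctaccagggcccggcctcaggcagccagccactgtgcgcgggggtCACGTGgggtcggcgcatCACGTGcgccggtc

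Lamp1 held 4 copies of CACGTG, which began 61, 45, 28 and 15 bases upstream of the TSS, and Atp6v0b held 2. Of the 7 genes with both a promoter peak and a promoter CACGTG, the peak window covered the hexamer in 1, Atp6v1c1, where it lay just downstream of the TSS and 157 bp from the peak centre. In the other 6 the hexamer was outside the window, at 302 bp from the peak centre for Glb1, 620 bp for Atp6v0d1, 743 bp for Atp6v1a and 1641 bp for Arsa. For Lamp1 the 4 copies were 649 to 695 bp from the centre and for Mcoln1 the 2 copies were 611 and 637 bp away.

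**Figure D4:**
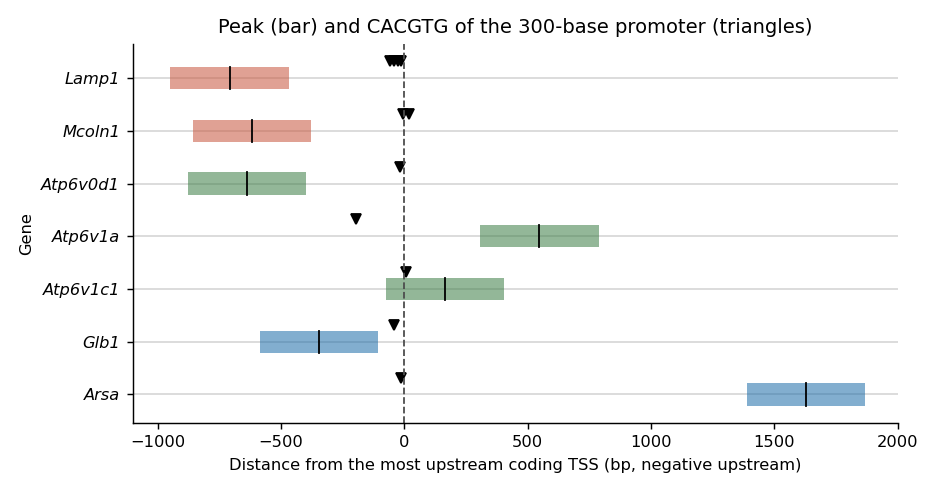
Position of the peak (bar, 481 bp, black line at its centre) and of each CACGTG of the 300-base promoter (triangles) relative to the most upstream coding TSS (dashed line, bp) for the 7 lysosomal genes with both. The bar covers a triangle at Atp6v1c1 alone, and at Lamp1, Mcoln1, Atp6v0d1 and Glb1 the bar lies upstream of the triangles.

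Within the 481-bp peak windows, CACGTG occurred in 4 of 19 (21.1%, against 12.0% of promoter peaks), at Ctsl, Glb1, Atp6v1a and Atp6v1c1, and GTCACGTG in 1 (5.26%, against 3.70%). GTAAACA, the core FOXO recognition sequence, searched on both strands, occurred in 2 (10.5%, against 4.39%), the peaks of Atp6v1e1 and Atp6v1h, at 29 and 20 bp from the peak centre. ATAAACA, a related sequence, occurred in none of the 19 (against 5.29%), and neither sequence was in any of the 54 promoters (against 3.02% and 4.05% of the other promoters). The bases around the motif in both peaks are shown on the strand of the gene with GTAAACA in capitals, together with those around the CACGTG of the Glb1 peak, at chr6:120823223-120823349 (minus), chr1:5082694-5082820 (plus) and chr9:114400744-114400869 (plus) of mm10. A match is a description of the letters and does not show that a factor was bound.

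Atp6v1e1 peak: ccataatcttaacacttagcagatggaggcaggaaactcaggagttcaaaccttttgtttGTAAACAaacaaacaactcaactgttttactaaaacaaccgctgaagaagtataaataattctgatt
Atp6v1h peak: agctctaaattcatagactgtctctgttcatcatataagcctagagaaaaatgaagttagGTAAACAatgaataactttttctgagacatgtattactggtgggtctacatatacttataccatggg
Glb1 peak: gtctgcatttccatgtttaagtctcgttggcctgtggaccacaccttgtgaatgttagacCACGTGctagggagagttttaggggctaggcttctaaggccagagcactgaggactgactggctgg

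Of the further sequences searched on both strands, GGGCGG, the core of the Sp1 site, was in 4 of the 19 peaks (21.1%, against 52.7% of promoter peaks) and in 36 of the 54 promoters (66.7%, against 43.8%), 9 of 19 with a peak and 27 of 35 without. CCAAT, bound by NF-Y, was in 6 of the 19 peaks (31.6%, against 39.2%) and in 19 promoters (35.2%, against 39.0%), 2 of 19 with a peak (Man2b1 and Atp6v1e1) and 17 of 35 without. GCGGGAA, an E2F core, was in none of the 19 peaks (against 11.3%) and in 5 promoters (9.26%, against 5.82%). TGACGTCA, the cAMP response element, was in 1 peak (5.26%, against 1.99%), that of Gusb. The lower GC content of the 19 peaks moved with the lower share of the GC-rich sequences GGGCGG and GCGGGAA, and its part in them was not tested.

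Of the 8 lysosomal genes on the list that the study's own analysis tied to methylated Pontin, 5 had a promoter peak (Ctsa, Tpp1, Mcoln1, Atp6v0d1 and Ctns) and 3 had none (Cln3, Ctsf and Atp6v0b), a share of 62.5% (30.6 to 86.3) beside 17.0% of the other protein-coding genes. The study drew that list from RNA-seq of MEFs with wild-type Pontin or a methylation-site mutant, in normal medium and under glucose starvation. These 8 genes had a median of 10 annotated TSSs, beside 3 for the other protein-coding genes, and a peak near any TSS counted. The 17.0% is thus not a share of genes with a like number of TSSs. Of the 5 peaks, 4 were below 8-fold over input. For the other lysosomal genes, a second list of 54 that covers further hydrolases, trafficking proteins and pump subunits, a promoter peak was found at 18 (33.3%, 22.2 to 46.6, beside the same 17.0%), of which 2 were among its 11 pump genes. The highest tag counts were at Gga1 (24.1), Pla2g15 (20.9), Atp6v1g2 (19.0), Aga (18.8) and Gga3 (18.5), all below that of Lamp1.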

How the data were processed

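The peak table of 1 mePontin ChIP-seq library, from glucose-starved MEFs, was used. The authors used Bowtie2 for alignment to mm10 (GRCm38) and HOMER 4.7.2 for peaks against input, keeping 4311 of 13480 putative peaks at a false discovery rate of 0.001, with 4-fold or more tags than input and than the 10 kb around and Poisson p-values of at most 0.0001, per the file headers. The deposited signal is the normalized tag count per 10000000 tags. The library had 20765512 tags, of which 0.65% were in peaks. The deposited score ranked peaks in 1 alternative, the deposited fold values are ratios to input and to the local region, and the authors' p-value columns were not used in any result. Another 4 columns of the table were not used.

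Peak centres were compared with all TSSs of GENCODE vM21 and sequences were read from GRCm38, in Python 3.11.15 with NumPy 2.4.6, pandas 2.3.3, SciPy 1.17.1 and pysam 0.24.0. Library tags were the signal rescaled to the library total, with Poisson intervals at 95%. The rescaled counts were not whole numbers, so these intervals are approximate. Like-GC shares were averaged over the 54 genes. Peak placement and GC matching were tested on simulated data. No test across conditions was possible with 1 library. Every gene of the list was named, and of the other lysosomal genes the 5 with the highest tag count. The 54 genes and all lists were chosen with earlier results of these data known. Alternatives covered the distance limit, the set of TSSs, the fold and score limits, the GC window and the motif.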

Additional observations from a re-analysis of the deposited data

How the results depend on the processing

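No paired analysis was possible because all libraries are single, 1 for each antibody and medium. With peaks of at least 8-fold over input, the lysosomal genes with a promoter peak fell to 9, the hydrolases to 3 and the pump subunits to 3, and the share fell to 9.91% in the other protein-coding genes and 11.5% in those of like promoter GC content. With the peaks at or above the median score, 14 lysosomal genes had one, without Ctsl, Manba, Tpp1, Ctns and Atp6v1h, and the shares were 9.97% and 11.7%. The share in the other genes was 16.1% within 1 kb, 18.1% within 5 kb and 15.7% from the most upstream TSS alone, where 17, 20 and 15 lysosomal genes had a peak. The genes lost were Man2b1 and Manba within 1 kb, and Idua, Manba, Cd63 and Atp6v1h with the most upstream TSS, and the gene gained within 5 kb was Ctsd. With TSSs of protein-coding transcripts, 18 genes had a peak, beside 16.6% of the other genes and 19.5% of those of like GC content. With distances from the peak edge 19 did, beside 17.1% and 20.1%.

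The like-GC share was 19.8% with a window of 5 percentage points and 21.4% with GC content over 1000 bases. Chosen after seeing the data, matching on the same number of TSSs and on GC content within 2 percentage points gave 21.8%, and autosomes alone gave 20.7%. Lysosomal genes had a median of 4 TSSs and other genes 3. Counting peaks only for the gene of the nearest TSS, also chosen after seeing the data, left 14 of the 19 lysosomal genes (73.7%). The same rule left 2936 of the 3728 other genes with a peak (78.8%). CACGTG was in 22 of the 54 promoters over 1000 bases (against 16.9% of the others), and TCACGTG was in 13 over 300 bases (24.1%, against 4.11%).

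A peak holds a median of 29.5 tags, so single values carry wide counting error, and regions that failed the authors' tag, fold or p-value limits were not analysed here. A gene without a peak in the list is a gene where none passed all of these limits, and the absence of methylated Pontin was not measured.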
